A study of Mus musculus with 5 samples.

Results

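Peaks of BCLAF1 CUT&RUN in wild-type (WT) fetal liver haematopoietic stem cells (HSCs) were compared with those of Bclaf1 knockout (KO) HSCs. All deposited peaks of HSC WT 1, HSC WT 2 and HSC KO on chromosomes 1 to 19 and X were used, apart from those in a crowded window at the start of chromosome 9. This left 362, 452 and 3890 peaks, 4704 of the 7045 peaks in all 5 libraries of the series. Each HSC library came from 50000 sorted mouse cells at embryonic stage E17.5, pooled from 24 to 26 embryos, with genotype WT in 2 libraries and KO in 1. No treatment is named for the HSCs, and one anti-BCLAF1 antibody was used throughout. The other 2 libraries of the series, from native and fixed LSK progenitors (Lineage-, Sca1+, Kit+), enter only where they are named. The labels give the knockout as a genotype only; its allele, the driver of the deletion and the strain were not given in the sources used here.

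BCLAF1 is an arginine- and serine-rich nuclear protein that has been linked to transcription, pre-mRNA splicing and the stress response. THRAP3 is its closest paralog. HSCs divide actively in the fetal liver before they move to the bone marrow. In CUT&RUN an antibody tethers micrococcal nuclease to chromatin, the cut fragments leave the nucleus and are sequenced, and a peak marks a place where they pile up. A library from knockout cells shows what the antibody and the nuclease yield when the target is labelled as missing. Peak lists hold no expression values, so neither the cell type nor the loss of Bclaf1 could be checked from marker or target levels.

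Stretches at Gm13822, Gm40237 and Relt show in sequence what peaks covered near annotated starts. They were chosen after their values were seen, because a peak reached into a RefSeq start window (250 bases before to 50 after a start, GRCm38.p6) and the bases shown lie outside protein-coding genes. Capitals mark the bases under the KO peak for Gm13822 and Relt and under the HSC WT 1 peak for Gm40237. The first is a stretch upstream of Gm13822, a long non-coding RNA gene that starts close to Oasl1, on the minus strand of chr5:114922262-114922511. The second lies before a listed start of Gm40237, also a long non-coding RNA gene, within its annotated bounds, on the plus strand of chr4:118547156-118547405. The third lies beyond the 5′ end of Relt, a tumour necrosis factor receptor family gene, on the minus strand of chr7:100863490-100863663. At Relt the KO peak alone reaches the bases shown, and both WT peaks lie just beyond them.
Gm13822: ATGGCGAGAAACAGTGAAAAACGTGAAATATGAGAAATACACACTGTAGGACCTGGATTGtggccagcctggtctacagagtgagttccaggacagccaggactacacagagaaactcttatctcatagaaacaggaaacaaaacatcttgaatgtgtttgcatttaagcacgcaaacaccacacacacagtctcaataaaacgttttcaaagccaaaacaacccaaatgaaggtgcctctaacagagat
Gm40237: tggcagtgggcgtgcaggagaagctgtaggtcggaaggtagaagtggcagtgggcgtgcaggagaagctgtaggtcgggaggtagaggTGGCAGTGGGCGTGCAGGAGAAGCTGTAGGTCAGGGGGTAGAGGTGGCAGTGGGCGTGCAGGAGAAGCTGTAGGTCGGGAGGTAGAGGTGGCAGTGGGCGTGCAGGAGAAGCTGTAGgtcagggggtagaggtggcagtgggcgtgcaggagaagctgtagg
Relt: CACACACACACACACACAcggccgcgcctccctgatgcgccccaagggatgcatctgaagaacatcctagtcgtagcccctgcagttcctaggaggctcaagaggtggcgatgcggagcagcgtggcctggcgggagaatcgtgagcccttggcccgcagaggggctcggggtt

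The Gm40237 stretch is a tandem repeat. Shifted against itself by 44 bases, its 300-base window matched at 96.1% of positions, and by 88 bases at 97.6%. The latter was the highest best match, over shifts of 20 to 100 bases, of all 32619 windows, whose median was 33.6%. The HSC WT 1 peak had an enrichment of 7.76 and the KO peak one of 9.57, and HSC WT 2 had no peak there. Enrichment is the authors' own value per peak, reads at the summit plus 1 over local background plus 1, and libraries were not scaled to each other. The local background at this repeat was 8.84 times the genome background in HSC WT 1 and 8.43 times in KO. Without the added 1, reads over background were 10.0 and 10.5, so the 2 genotypes lay close to each other.

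At Relt, the KO peak reached 18 bases into the window, all of them inside a CA repeat. The repeat is cut by the window edge, with 19 bases inside the window and its full length unknown. A run of at least 19 bases was found in 0.294% of all windows. Counted from the listed start, the HSC WT 1 summit lay at -296, the HSC WT 2 summit at -298 and the KO summit at -297. Enrichment there was 5.98, 4.42 and 29.3 in the same order, from 7, 4 and 62 reads. Reads over background were 20.7, 30.7 and 54.1, so KO was the highest of the 3. At Gm13822 the summits lay at -224, -258 and -232 from the start. Reads numbered 13, 6 and 77, which gave 36.6, 51.3 and 50.9 reads over background, with KO inside the span of the WT libraries. One further start window, that of Cracr2a, was met by a peak in HSC WT 2 and in no other HSC list, with 4 reads and an enrichment of 4.48. Gm15564, met by a peak of HSC WT 1 (20 reads) and of KO (54 reads), and Stc2, met in KO alone (23 reads), are named without sequence. Of the 32619 windows, 4 met an HSC WT 1 peak, 2 an HSC WT 2 peak and 6 a KO peak.

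The libraries differed in recovered genome background, which bears on every comparison of the lists. Read totals were not used, so sequencing depth itself was not compared. The genome background, recovered from each peak's enrichment and p-value, was 1.15 reads per position in KO, 3.38 times the 0.339 of HSC WT 1 and 9.80 times the 0.117 of HSC WT 2. The weakest calls held 6, 4 and 9 reads. At the genome background of each library these correspond to 17.7, 34.2 and 7.85 reads over background, so KO peaks were called down to lower ratios than WT peaks. No test across samples was made with 1 KO library. Intervals are exact 95% binomial intervals and cover counting error only. The labels do not say whether the 2 WT libraries came from separate embryo pools.

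Peaks were short in all 3 lists. The median width was 108 bp in HSC WT 1 (quartiles 88.2 to 151), 86 bp in HSC WT 2 (75 to 106) and 85 bp in KO (73 to 107), and the widest peaks were 1081, 1077 and 1171 bp. Peaks over 200 bp made up 19.1%, 7.52% and 5.17% of the lists. The 362 strongest KO peaks, as many as HSC WT 1 held, had a median width of 125 bp. Summits lay near the middle of the peaks, at a median of 47.8%, 50.0% and 48.5% of the width. Width and enrichment rose together within each list (Spearman's rho 0.418, 0.523 and 0.446 across peaks, as a description).

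Peaks that the genotypes shared were wider at the median than the others. KO peaks that overlapped a WT peak had a median width of 139 bp (n = 357, quartiles 107 to 243), against 83.0 bp (n = 3533, 72.0 to 100.0) for the rest. In HSC WT 1 the medians were 113.5 bp on KO peaks (n = 320) and 79.5 bp without KO (n = 42), and in HSC WT 2 they were 96.0 bp (n = 275) and 78.0 bp (n = 177). No WT peak without KO was wider than 200 bp, while 69 HSC WT 1 and 34 HSC WT 2 peaks on KO were. In KO, 119 of the 357 peaks on WT (33.3%) and 82 of the 3533 others (2.32%) were over 200 bp.

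**Figure D1:**
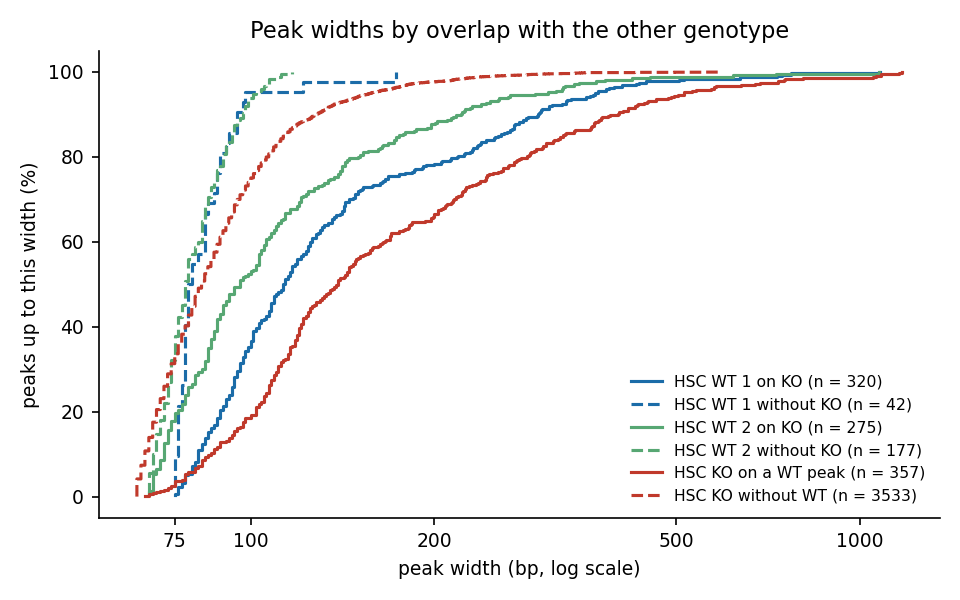
Cumulative share of peaks (%) by peak width (bp, log scale) in HSC WT 1 (blue), HSC WT 2 (green) and HSC KO (red); solid lines are peaks that overlap the other genotype by at least 1 bp and dashed lines those that do not. In each library the solid line lies to the right, with medians of 113.5, 96.0 and 139 bp against 79.5, 78.0 and 83.0 bp.

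Of the 362 HSC WT 1 peaks, 320 lay on a KO peak (88.4%, interval 84.6 to 91.5), and of the 452 HSC WT 2 peaks, 275 did (60.8%, 56.2 to 65.4). In the other direction, 357 of 3890 KO peaks lay on a WT peak (9.18%, 8.29 to 10.1). The WT libraries shared fewer peaks with each other than with KO in HSC WT 1, where 217 lay on HSC WT 2 peaks (59.9%, 54.7 to 65.0). In HSC WT 2, 224 lay on HSC WT 1 peaks (49.6%, 44.9 to 54.3). List length differs, and with each list held to its 362 strongest peaks the shares on KO were 55.2% for HSC WT 1 and 48.1% for HSC WT 2, and 57.5% of HSC WT 1 peaks lay on HSC WT 2 peaks. Merged over the 3 lists the peaks made 4105 regions. Of these, 207 were in all 3 lists, 97 in HSC WT 1 and KO, 52 in HSC WT 2 and KO, and 3 in both WT lists without KO. Another 39 were in HSC WT 1 alone, 174 in HSC WT 2 alone and 3533 in KO alone.

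Overlap followed the enrichment rank. All of the 100 strongest HSC WT 1 peaks and 99 of the 100 strongest HSC WT 2 peaks lay on a KO peak. The first HSC WT 1 peak without one stood at rank 194, with an enrichment of 9.71, and the first HSC WT 2 peak at rank 30, with 18.7. By deciles of each list, the share on KO was 100% through decile 5 in HSC WT 1 and 58.3% (40.8 to 74.5) in decile 10. In HSC WT 2 it went from 97.8% in decile 1 to 52.2% in decile 6 and 13.3% (5.05 to 26.8) in decile 8, where the median peak held 4 reads. In KO the share was also highest at the top: 58.6% (53.5 to 63.6) of the strongest decile lay on a WT peak, 12.9% of the next, and between 1.29% and 5.14% of the others. Among the 10 strongest KO peaks 10 were called in WT, and among the 100 strongest 90 were.

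**Figure D2:**
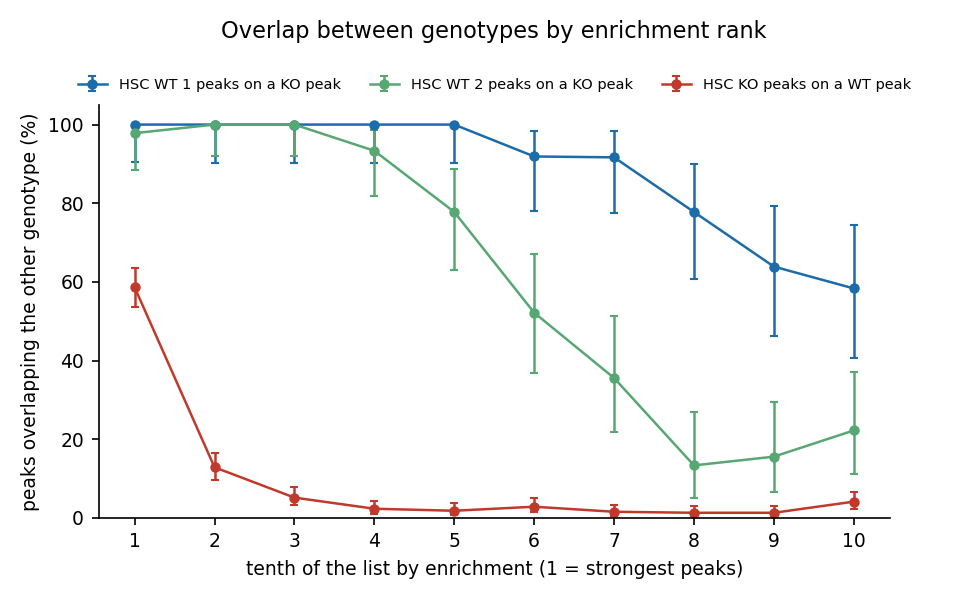
Share of peaks (%) that overlap a peak of the other genotype, by decile of each list from the strongest (1) to the weakest (10) enrichment; bars are exact 95% binomial intervals. HSC WT 1 (blue) stays at 100% through decile 5, HSC WT 2 (green) falls to 13.3% in decile 8, and HSC KO (red) drops from 58.6% to 12.9% after decile 1.

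The order of the shared regions was similar at the top and loose below. The 10 strongest HSC WT 1 regions had KO ranks from 1 to 29, and the 10 strongest HSC WT 2 regions from 1 to 68, each with a median of 5.5. Among the 50 strongest, the median KO rank was 59.0 for HSC WT 1 (worst 565) and 58.0 for HSC WT 2 (worst 1160, with 49 of 50 in KO). Over the 207 regions in all 3 lists, Spearman's rho of enrichment was 0.772 between the WT libraries, 0.465 between HSC WT 1 and KO and 0.477 between HSC WT 2 and KO, as a description across regions that share libraries. Of these 207, 72 were among the 100 strongest KO peaks, 170 among the 500 strongest and 23 below rank 1000.

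**Figure D3:**
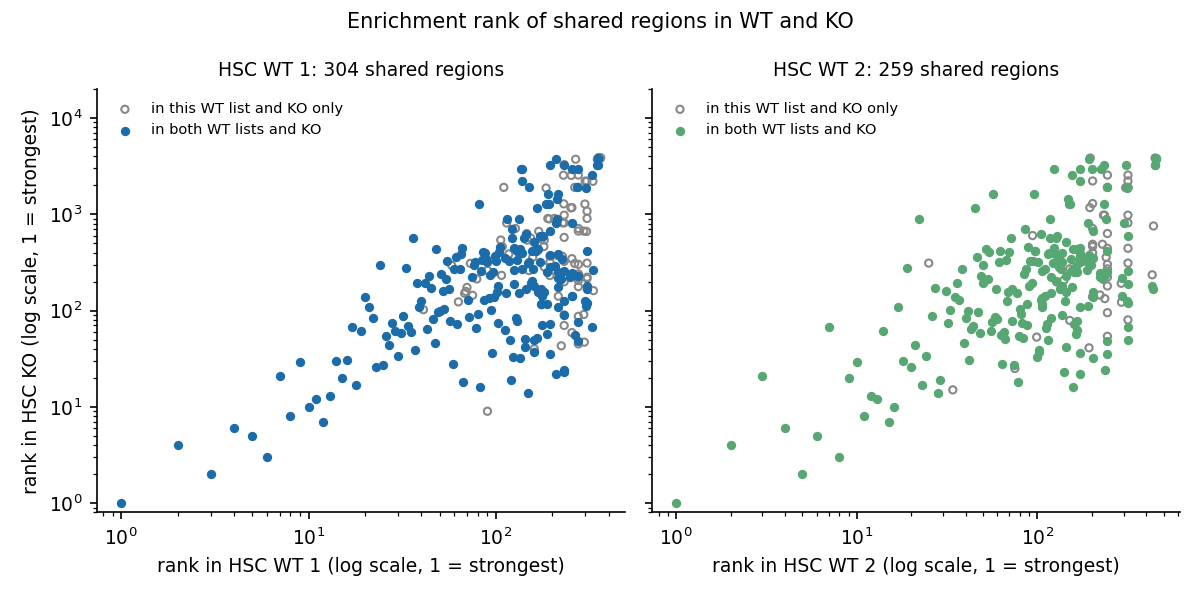
Enrichment rank in HSC WT 1 (left, 304 regions) or HSC WT 2 (right, 259 regions) against the rank in HSC KO, both on log axes with 1 as the strongest; filled points are regions in both WT lists and KO, open points those in 1 WT list and KO. The strongest region holds rank 1 in all 3 lists, and KO ranks spread up to 3822 at the weak end.

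Summits of shared regions nearly coincided. In the 207 regions the median distance between summits was 9 bp between the WT libraries (quartiles 4 to 20.5), 7 bp between HSC WT 1 and KO (3 to 17) and 10 bp between HSC WT 2 and KO (5 to 25.5). Summits lay within 25 bp of each other in 163, 170 and 155 of the 207. The summit distances between genotypes were thus of the same size as those between WT libraries. The KO peak was the wider one in 184 regions against HSC WT 1 and in 198 against HSC WT 2.

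Signal over background at shared regions was of similar size in both genotypes. Reads could be recovered in all 3 lists for 167 of the 207 regions; the stronger ones lie beyond the range of the calculation. All 40 regions left out had a KO peak beyond it, against 16 peaks in each WT list, so the strongest KO regions are missing from the values that follow, including the KO median and the counts below and above WT. The median of reads over local background was 37.2 in HSC WT 1 (quartiles 27.1 to 51.1), 51.7 in HSC WT 2 (37.2 to 68.8) and 44.7 in KO (26.8 to 61.5). KO lay between the WT values in 57 regions, below both in 69 (41.3%) and above both in 41 (24.6%). The median ratio of KO to HSC WT 1 was 1.03 and that of KO to HSC WT 2 was 0.818, each over the 167 regions. HSC WT 2 to HSC WT 1 gave 1.26, over the 191 regions with reads recovered in both WT lists. The ratios thus cover unlike sets of regions. Over the 167 regions the KO median of reads over background lay between those of the WT libraries, although enrichment ranks agreed less well between genotypes than between the WT libraries. KO was less than 0.5 times the lower WT value in 10 regions and more than 2 times the higher in 2. These regions were called in every list, so a region that lost its signal in KO could not enter this set. The median region held 91 KO reads, 19 HSC WT 1 reads and 11 HSC WT 2 reads.

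**Figure D4:**
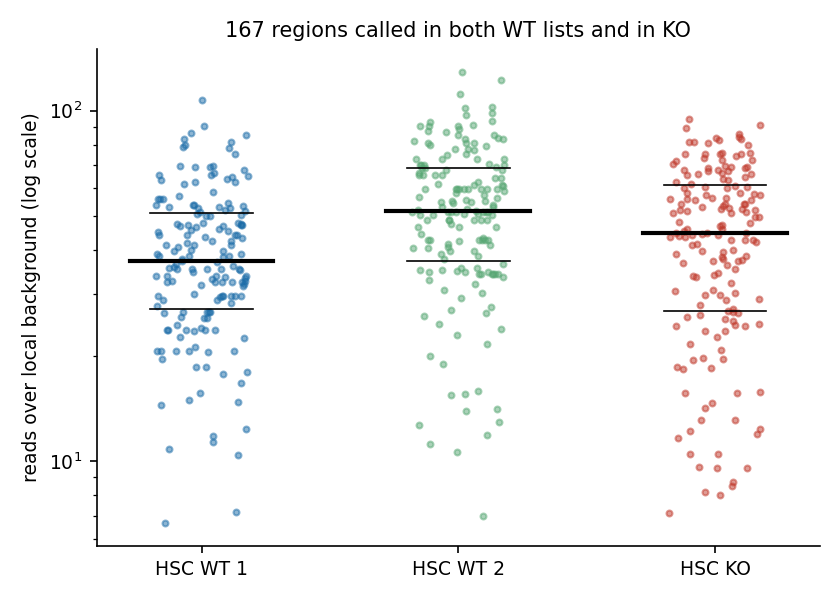
Reads over local background (log scale) of the 167 regions called in both WT lists and in KO with reads recovered in each; every point is a region, thick lines are medians and thin lines quartiles. The KO median of 44.7 lies between those of HSC WT 1 (37.2) and HSC WT 2 (51.7).

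The region with the best mean rank, 35252 bp from Pak3 on chromosome X (143482999 to 143483114), held rank 1 in each list. Among protein-coding genes that hold a shared region away from their boundaries, 10 were named by the best mean rank of 55. All 10 regions ranked within the first 43 peaks of HSC WT 1, 55 of HSC WT 2 and 83 of KO. Genes that hold at least 1 peak of each of the 3 lists, whether or not these peaks overlap, made up 0.273% of all protein-coding genes. Chl1, a neural cell adhesion gene, had ranks 2, 2 and 4 in HSC WT 1, HSC WT 2 and KO. Mdga2, which encodes a neuronal cell surface protein, had 9, 10 and 29, at chromosome 12 from 67059174 to 67059676. The lists differ in length, so equal ranks do not stand for equal strength.

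Cdk5rap2, a centrosome gene, held a region on chromosome 4 from 70378118 to 70378256 with ranks 5, 6 and 5. The uncharacterised gene 2210408I21Rik had ranks 4, 4 and 6. Litaf, whose product acts in endosomes and lysosomes, had ranks 30, 24 and 34 and reads over background of 78.3, 98.7 and 84.2 at chromosome 16 from 10975074 to 10975175, with KO between the WT values. Dpp9, a dipeptidyl peptidase gene, had ranks 19, 14 and 62. Its reads over background were 107, 123 and 75.3, so KO was lower than both WT libraries. Ank1, which encodes the ankyrin of the red cell membrane skeleton, had ranks 22, 40 and 83 and 65.6, 54.4 and 53.1 reads over background at chromosome 8 from 23095492 to 23095661. KO lay below both WT values there, close to that of HSC WT 2. Dop1b, a gene of endosomal trafficking, had 79.0, 77.8 and 67.4. Cldn34d, a claudin family gene, had ranks 27, 21 and 44, and Kctd16, an auxiliary subunit gene of GABA-B receptors, 43, 43 and 65.

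In all, 10 protein-coding genes had an annotated boundary within 1 kb of a region shared by all 3 lists. Only the best-ranked region of each gene was counted here. The strand in the RefSeq start table showed that 5 of these regions lay nearer the 3′ end, 3 nearer the 5′ end, and 2 genes had no listed strand. There were 11 such regions, because Gm32584 had a second one, on chromosome 5 from 36660972 to 36661209. That second region lay within 1 kb of the 5′ end of Gm32584. The 3′ group was Wls, which encodes a carrier of Wnt proteins, Lars2, a mitochondrial leucyl-tRNA synthetase, Adgb, which encodes androglobin, and Gm32584, whose region also lies inside D5Ertd579e, and Gm21814. Their ranks in HSC WT 1, HSC WT 2 and KO were 15, 9 and 20 at Wls and 86, 104 and 129 at Lars2. At Adgb they were 303, 190 and 111, so this region stood higher in KO than in either shorter list. The 5′ group was Asmt, an enzyme gene of melatonin synthesis, with ranks 35, 65 and 60, Oasl1, an interferon-induced gene, with 181, 202 and 156, and Relt with 306, 432 and 180. Psmc3, a proteasome subunit gene, had ranks 82, 158 and 16, and Spocd1 had 123, 100 and 33.

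WT peaks without a KO peak rested on few reads. The 42 in HSC WT 1 held a median of 7 reads and the 177 in HSC WT 2 a median of 4, the lowest number called, which 113 of the 177 had. All 219 had more reads over background than the 7.85 of the weakest KO call at its genome background. The weakest WT calls at their genome backgrounds, 17.7 and 34.2, already lie above that level. This outcome was thus largely set by the calling levels, and it does not show that KO would have called these sites. Of the 42, 2 lay within 100 bp and 3 within 1 kb of a KO peak, and of the 177, 0 and 1 did. Among the strongest of HSC WT 1 were peaks 4789 bp from Armc12, 640334 bp from Nxph1, in Myo3a and in Atxn10. Their enrichments were 9.71, 9.71, 8.47 and 8.22. The Myo3a peak lay 83 bp from a KO peak. In HSC WT 2 the strongest stood at positions 10186386 to 10186454 of chromosome 6, a distance of 936767 bp from Nxph1. It held 22 reads, with an enrichment of 18.7 and 95.8 reads over background. The other 4 held 7 reads each. They lay 477282 bp from Marcks, in Nf2, 1458 bp from Mmp16 and 288638 bp from Gcfc2, the nearest genes.

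Regions in both WT lists without KO numbered 3. The one 4789 bp from Armc12 had 12 HSC WT 1 reads and 5 HSC WT 2 reads. The one 327532 bp from Cypt14 had 9 and 5, and the one 836003 bp from Nxph1 had 7 and 4. All 3 stood in the lower part of the lists, between ranks 194 and 446. With only HSC WT 1 required the count was 42, and with only HSC WT 2 it was 177. With each list held to its 362 strongest peaks it was 58, with peaks of at least 34.2 reads over background in every list 20, and with peaks closer than 10 kb to a neighbour in their own list removed 13. That last setting also removes KO peaks that WT peaks overlap.

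KO peaks without a WT peak numbered 3533 (90.8%, 89.9 to 91.7). Their median was 13.1 reads over background, against 39.2 for KO peaks on a WT peak. Of the 3533, 2767 (78.3%) were below the weakest HSC WT 1 call and 3381 (95.7%) below the weakest HSC WT 2 call at their genome backgrounds. The others were not: 766 reached the HSC WT 1 level and 152 the HSC WT 2 level. Of all 1057 KO peaks that reached the HSC WT 1 level, 250 lay on an HSC WT 1 peak (23.7%, 21.1 to 26.3), and of 372 that reached the HSC WT 2 level, 176 lay on an HSC WT 2 peak (47.3%, 42.1 to 52.5). Below these levels the shares were 1.94% and 2.36%. These levels are for the genome background, and a raised local background moves them.

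**Figure D5:**
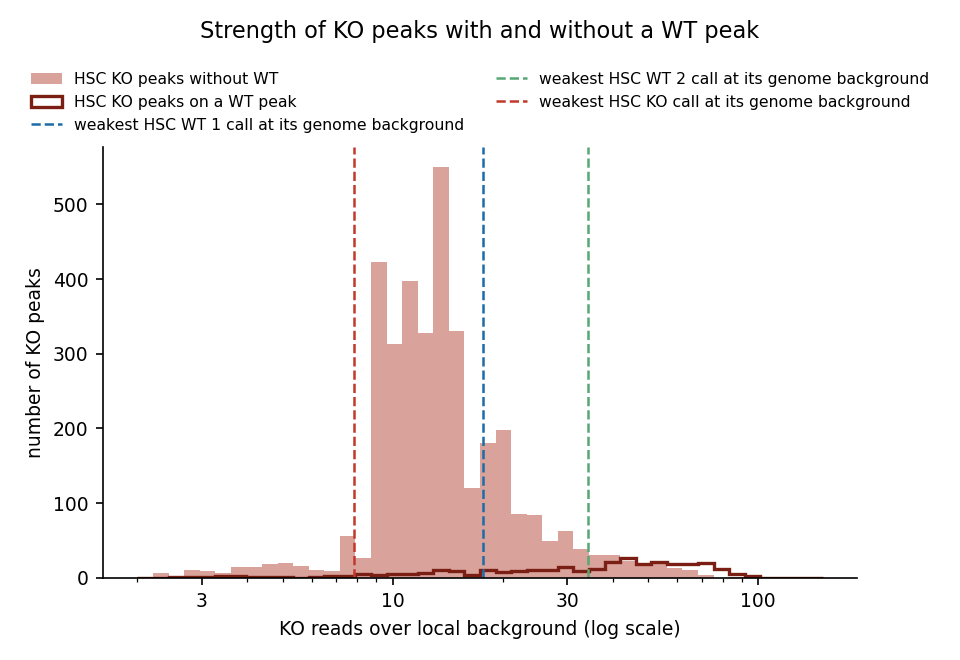
Number of KO peaks by reads over local background (log scale), for peaks without a WT peak (filled) and peaks on a WT peak (outline); dashed lines are the weakest calls at the genome background, 7.85 for KO, 17.7 for HSC WT 1 and 34.2 for HSC WT 2. Most KO peaks without WT lie left of both WT lines, and 152 reach the HSC WT 2 line.

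The strongest KO peak without a WT peak stood at rank 11 of the KO list. It lay inside Mamdc2, which encodes a matrix proteoglycan, on chromosome 19 from 23357428 to 23357512, with an enrichment of 76.8 and a width of 85 bp. The next in or within 1 kb of a gene were Ubtfl1, Zfp710, Nalcn, a sodium leak channel gene, Luzp2, Cald1, which encodes caldesmon, Efcab3, Tle7, Pbx4, a homeobox gene, and Tekt3, a gene of sperm flagella. These 9 had ranks from 93 to 124, enrichments from 37.9 to 34.0, 72 to 92 reads, and 59.4 to 68.9 reads over background. Each of these ratios was above the weakest call of both WT libraries.

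Local background separated shared peaks from the others. Among peaks with recovered reads, the background equalled that of the genome in 84 of 304 HSC WT 1 peaks on KO (27.6%) and in 31 of 42 without KO (73.8%). In HSC WT 2 it did so in 57 of 259 (22.0%) and 137 of 177 (77.4%). In KO it did so in 94 of 313 peaks on WT (30.0%) and in 3005 of 3532 without WT (85.1%). A local background above 2 times that of the genome was found in 34.2% of HSC WT 1 and 34.4% of HSC WT 2 peaks on KO. Across the 167 regions, the raised background was shared: Spearman's rho of local over genome background was 0.697 between HSC WT 1 and KO, 0.758 between HSC WT 2 and KO and 0.819 between the WT libraries, as a description. It exceeded 2 in all 3 libraries in 34 regions. A peak's own reads may enter its local background, and their part was not tested.

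Most peaks lay outside genes in each list. Inside a protein-coding gene were 27.9% of HSC WT 1 peaks (23.3 to 32.8), 31.9% of HSC WT 2 (27.6 to 36.4) and 34.1% of KO peaks (32.6 to 35.6). Within 1 kb of a gene boundary were 4.14% (2.34 to 6.74), 4.20% (2.55 to 6.49) and 2.96% (2.45 to 3.54). Some coding genes, such as Psmc3 and Ank1, have no listed start, so shares near starts are lower bounds. Within 1 kb of a listed transcript start, coding or not, were 4.00%, 2.97% and 1.99%. For KO peaks this share was 4.34% (2.45 to 7.05) on WT peaks and 1.75% (1.34 to 2.25) without WT. More than 50 kb from any protein-coding gene were 37.0%, 38.7% and 36.2% of the peaks. Chromosome X held 3.04%, 2.88% and 3.21% of the peaks. Of all protein-coding genes, 0.444% held an HSC WT 1 peak, 0.633% an HSC WT 2 peak and 4.78% a KO peak, and with 1 kb on either side these shares were 0.481%, 0.689% and 5.16%.

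Bclaf1, on chromosome 10 from 20310512 to 20342644, had no peak within 100 kb in any list; the nearest lay 1799867 bp away in HSC WT 1, 1799887 bp in HSC WT 2 and 442002 bp in KO. Thrap3 also had none within 100 kb. Gene lists of stem cell identity, stress, inflammation, splicing, cell cycle and other blood or liver cell types were then read against the peaks. Of their 323 matched genes, 3 held or lay within 10 kb of an HSC WT 1 peak (0.929%), against 0.684% of all 21627 protein-coding genes. In HSC WT 2 it was 6 (1.86% against 0.976%) and in KO 20 (6.19% against 7.56%). Genes that held or lay within 10 kb of a peak of each of the 3 lists, overlapping or not, made up 0.416% of all genes. Of the 6 HSC WT 2 genes, 4 rested on peaks of 4 reads.

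Of the genes named, Ank1 and Oasl1 had peaks in all 3 lists, and Csf2ra, a receptor gene of myeloid cells, in HSC WT 1 and KO. Each of these WT peaks overlapped a KO peak. HSC WT 2 alone had peaks inside the stem cell genes Mecom and Mllt3, inside Xrcc5, which acts in DNA end joining, and inside the lymphoid factor gene Bcl11b. Each held 4 reads, with an enrichment of 4.48 at Mecom, Xrcc5 and Bcl11b and 4.37 at Mllt3, and none lay on a KO peak. HSC WT 2 had peaks at 2 of 38 stem cell identity genes (5.26%, against 0.976% of all genes) and HSC WT 1 at 0. KO also had peaks at 2 of the 38 (5.26%, against 7.56% of all genes), Meis1 and Erg. The strongest of 3 Meis1 peaks, 945 bp from the gene, had 34 reads and an enrichment of 16.3, and the Erg peak 10 reads and 5.12. Neither of these peaks lay on a WT peak.

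HSC WT 1 and HSC WT 2 each had a peak at 1 of 38 matched interferon genes (2.63%), against 0.684% and 0.976% of all genes. KO had peaks at 2 of the 38 (5.26%, against 7.56% of all genes). The KO genes were Oasl1 and Tyk2, a kinase gene of interferon receptors, the latter with 49 reads and an enrichment of 23.3. Among 27 genes of heat shock and integrated stress, KO had peaks at 3 (11.1%, against 7.56% of all genes) and both WT libraries at 0, where the shares of all genes were 0.684% and 0.976%. These were Atf6, a sensor of stress in the endoplasmic reticulum, with 18 reads, Eif2ak4, a kinase activated by lack of amino acids, with 15, and Hspa4, a heat shock protein gene, with 12. In the DNA damage list KO had peaks at 3 of 23 genes (13.0%, against 7.56% of all genes). Among them were Gadd45b with 56 reads and Trp53bp1 with 23. HSC WT 2 had a peak at 1 of the 23 (4.35%, against 0.976%) and HSC WT 1 at 0. Among 31 NF-kB and inflammation genes KO had a peak at Il1r1 alone (3.23%, against 7.56%), with 20 reads. None of the peaks of Tyk2, Atf6, Eif2ak4, Hspa4, Gadd45b, Trp53bp1 and Il1r1 lay on a WT peak.

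In the remaining lists, whose KO counts stand against 7.56% of all genes, KO had peaks at 1 of 24 p53 and apoptosis genes (Bbc3), 1 of 34 splicing factor genes (Hnrnpc) and 1 of 29 cell cycle genes (Ccnd3). The HSC WT libraries had none at these 3 lists. Among markers of other cells that a fetal liver sort could hold, KO had peaks at 3 of 16 erythroid (18.8%), 1 of 18 myeloid (5.56%), 1 of 17 lymphoid (5.88%, Ebf1), 1 of 10 megakaryocyte (10.0%, Itgb3) and 0 of 15 hepatocyte genes. HSC WT 1 had a peak at 1 erythroid (6.25%) and 1 myeloid gene (5.56%), against 0.684% of all genes. HSC WT 2 had a peak at 1 erythroid (6.25%) and 1 lymphoid gene (5.88%), against 0.976%. Bclaf3, the third gene of the BCLAF1 family list, had none within 10 kb either.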

How the data were processed

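The authors deposited a narrowPeak list for each library, on build mm10 per the submitters' processing notes. The aligner, the caller, its control and duplicate handling were not given in the sources used here. Fold enrichment (a ratio to local background) and −log10 p- and q-values are the authors' deposited values. Reads at summits and local backgrounds were recovered by finding the whole read number that gives both the enrichment, with a pseudocount of 1, and the Poisson p (relative tolerance 0.0001, up to a −log10 p of 300). All peaks in that range were resolved, leaving 16, 16 and 45 stronger ones. On input made up to check the calculation, 653 of 653 read numbers and 1000 of 1000 planted overlaps were found. Whether the authors' caller used the assumed pseudocount and Poisson formula was not tested by this check.

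Peaks of chromosomes 1 to 19 and X entered. Those of chromosome Y (27, 19 and 556), of other sequences (97, 79 and 195) and of the chromosome 9 window (58, 57 and 71) were left out. Overlap means at least 1 bp. Genes came from RefSeq GRCm38.p6, the coordinates of mm10, and transcript starts from its start table, in which chromosome 18 was not used. That start table lacks some coding genes. Gene models give no exon or intron here. Of 325 list genes, 323 matched.

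Genes named were Bclaf1 and Thrap3, the 10 best by mean percentile rank at boundaries of and inside genes for regions of all 3 lists, regions of both WT lists without KO, the 5 best WT peaks without KO per library, the 10 best KO peaks without WT in or within 1 kb of a gene, and list members within 10 kb. One item that this rule names is not reported here. Members, lists and rules were chosen with earlier results of these data known. Python 3.11.15, pandas 2.3.3 and scipy 1.17.1 were used.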

Additional observations from a re-analysis of the deposited data

Results flagged for a closer look

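The strongest HSC WT 2 peak without a KO peak, on chromosome 6 from 10186386 to 10186454, was also called in the fixed LSK library, which the comparison of genotypes did not use. There it had an enrichment of 61.2 and rank 9 of 254 peaks on chromosomes 1 to 19 and X, at positions 10186383 to 10186461. Neither KO nor HSC WT 1 had a peak there.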

How the results depend on the processing

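Of 57 values under other settings, 23 stayed within the interval of the main value, or within 1.5 times for the count of regions, and 34 moved beyond it. The cause was not tested where the setting's own construction (fewer or stronger peaks, another distance) does not show it. The share of HSC WT 1 peaks on KO moved from 88.4% to 93.4% with a −log10 q of at least 5, 55.2% with lists of 362 peaks, 81.1% with at least 34.2 reads over background in every list (a setting chosen after seeing the data) and 79.3% without peaks within 10 kb of another. For HSC WT 2, with 60.8% of all peaks, these were 92.8%, 48.1%, 43.8% and 49.9%. HSC WT 1 peaks on HSC WT 2 peaks moved from 59.9% only with that reads setting, to 80.5%. Regions of both WT lists without KO numbered 1 with the q minimum, 58 with equal lists, 20 with the reads setting and 13 without crowded peaks; leaving out 1 WT library gave 42 to 177. KO peaks without WT made up 39.8% with equal lists, 50.5% with the reads setting, 92.2% without crowded peaks, 89.5% with the chromosome 9 window and 92.2% to 93.3% without 1 WT library. The median percentile rank of KO peaks on WT peaks (0 is the strongest) was 6.76, and 5.68 by −log10 q and 5.49 to 6.39 without 1 WT library. Median widths became 88.0 (KO) and 103 bp (HSC WT 2) with the q minimum, and 125 (KO) and 89.0 bp (HSC WT 2) with equal lists. The share of HSC WT 1 peaks inside genes was 33.1% without crowded peaks. Shares near genes at 500 bp were 2.21%, 2.21% and 1.39%, and at 5 kb 10.8%, 10.8% and 12.3%. No paired analysis was possible because the KO library carries no replicate number and results come from no test. Calling levels limit what each list can hold. At the genome background the weakest calls had 17.7 and 34.2 reads over background in the WT libraries and 7.85 in KO. Peaks over a raised local background were called at lower ratios.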

Other observations

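Around that chromosome 6 peak the KO list held no peak between positions 9811068 and 11388303, a stretch of 1577234 bp, while HSC WT 1 and HSC WT 2 each had 2 peaks in it. Of 201 KO-free stretches with a WT peak, 186 held 1, 14 held 2 and this one 4. These counts add the peaks of both WT lists, so a region called in both counts as 2. In this stretch the region from 10085622 to 10085697 was called in both WT lists, and the other peaks in 1 list each. Stretches between successive KO peaks, with or without a WT peak, varied widely in length. Their median was 372400 bp and their 90th percentile 1697504 bp. The stretch was singled out after its values were seen.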
